A study of Mus musculus with 6 samples.

Results

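The Mef2 family was taken as the rows with the symbols Mef2a, Mef2c and Mef2d, which were 3 of the 20367 genes joined across 6 RNA sequencing libraries of sorted cells from the embryonic mouse cortex. The members were chosen by name. Embryos came from heterozygous Tbr2(Eomes)-GFP mice crossed with homozygous DCX-mRFP mice on the C57BL/6J strain, and every library was made from embryos that carried both reporters. Eomes is a transcription factor of intermediate progenitors and doublecortin (Dcx) is a microtubule protein of young neurons. Double-colored cells are the neurons derived from intermediate progenitors (IPN), and cells that were only red are the non-IPN. The embryonic days were 13.5, 15.5 and 16.5, with 1 library for each population and day. At E15.5 the RNA of 1000000 cells was used unamplified, whereas for E13.5 and E16.5 the transcriptome of 10000 cells was amplified first. Age therefore changed together with cell number and amplification at E15.5, and these cannot be told apart there. The number of embryos behind a library is not stated in the labels. Levels are given as CPM, here deposited values scaled to a column total of 1000000, and triplets of values are in order of age.

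MEF2 proteins are MADS-box transcription factors that bind an A/T-rich site as dimers. In neurons, calcium entry relieves the hold of class IIa histone deacetylases and other corepressors on MEF2, through calcium-dependent kinases and the phosphatase calcineurin, and MEF2 target genes include regulators of synapse number. Mef2c is known from the developing cortical plate, where it acts in neuron maturation, and also from cortical interneurons, microglia, muscle and endothelium.

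Column totals of the deposited values ran from 12583677 to 32538995. The pan-neuronal markers Dcx, Tubb3, Map2, Stmn2, Snap25 and Gap43 summed to between 2044.16 and 9090.35 CPM in the 6 libraries. Projection neuron markers (8 genes) summed to 3300.89 to 5069.5 CPM in IPN and to 408.33 to 2507.69 in non-IPN, with the highest non-IPN value at E16.5. Interneuron markers (9 genes) summed to 21.85 to 62.17 CPM in IPN and to 1308.58 to 4697.93 in non-IPN. The non-IPN library of E13.5 stood apart in its red blood cell genes, which summed to 49013.26 CPM, against 4.91 in IPN of the same day. With hemoglobin genes taken out of the totals, Mef2c in that library was at 126 CPM instead of 120.

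The start regions of the 3 genes are shown first because the family's own binding site and the base composition differ between them. The sequences are 300 bases, from 250 before to 50 after a listed start, from RefSeq (build GRCm38.p6), and all 3 members had an entry. Capitals mark a match to the published 10-base MEF2 consensus. For Mef2a the window is chr7:67372809-67373108 on the minus strand, for the first of 3 listed starts of Mef2c it is chr13:83503784-83504083 on the plus strand, and for Mef2d it is chr3:88142122-88142421 on the plus strand.
Mef2a: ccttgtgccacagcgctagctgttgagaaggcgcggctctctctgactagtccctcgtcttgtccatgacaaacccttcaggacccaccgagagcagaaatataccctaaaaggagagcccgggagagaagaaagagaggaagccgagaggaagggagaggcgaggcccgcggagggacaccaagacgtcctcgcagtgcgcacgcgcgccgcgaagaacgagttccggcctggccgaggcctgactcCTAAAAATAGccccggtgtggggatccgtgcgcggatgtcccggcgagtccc
Mef2c: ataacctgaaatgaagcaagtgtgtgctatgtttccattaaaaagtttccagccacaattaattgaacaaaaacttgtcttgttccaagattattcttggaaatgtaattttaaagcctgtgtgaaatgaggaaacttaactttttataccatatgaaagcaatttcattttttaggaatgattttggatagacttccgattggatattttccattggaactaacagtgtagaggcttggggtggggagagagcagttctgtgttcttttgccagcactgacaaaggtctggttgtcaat
Mef2d: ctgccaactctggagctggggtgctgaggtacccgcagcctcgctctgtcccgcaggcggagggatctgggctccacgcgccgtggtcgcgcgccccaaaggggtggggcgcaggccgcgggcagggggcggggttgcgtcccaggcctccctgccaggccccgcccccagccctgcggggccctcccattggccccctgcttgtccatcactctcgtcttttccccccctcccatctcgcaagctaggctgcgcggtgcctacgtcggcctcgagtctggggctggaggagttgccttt

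The MEF2 consensus, searched on both strands, was found in 1 of the 5 family windows, that of Mef2a, where the capitals begin 2 bases before the listed start. Of all 32851 promoter windows of this length, 1047 (3.19%) held it. The 8 letters TAAAAATA, which lie within some forms of the consensus and were also searched on both strands, were in 2.72% of all windows, and within the family the only match was inside the same Mef2a stretch. The E-box CAGATG, a sequence bound by NeuroD factors, was in 17.2% of all windows, on either strand, and in 1 family window, that of the third Mef2c start (chr13:83573357-83573656). Base composition separated the members: GC content was 35.67%, 47.0% and 48.33% in the 3 Mef2c windows, 62.33% in Mef2a and 72.0% in Mef2d, against a median of 52.67% over all windows. CpG dinucleotides numbered 1, 10 and 4 in the Mef2c windows, 27 in Mef2a and 24 in Mef2d. A match or its absence describes these letters only.

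Mef2c was the most abundant member per transcript length in every library and was higher at E16.5 than at E13.5 in both populations. In IPN it was at 92.9, 274 and 710 CPM on the successive days, and in non-IPN at 120, 463 and 877 CPM. The order of the 6 levels followed day first: both E13.5 libraries were lowest and both E16.5 libraries highest, and within each day non-IPN was above IPN. The middle place of the E15.5 pair in this order cannot be credited to age, because cell number and amplification changed there too. With 1 library per population and day, neighbors in this order have no replicate error of their own. In the E16.5 libraries Mef2c was above 99.1% (IPN) and 99.4% (non-IPN) of genes by value.

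The rise of Mef2c from E13.5 to E16.5, which compares amplified libraries only, was 7.64-fold in IPN and 7.32-fold in non-IPN. On the log2(value + 1) scale of the deposited values, which are scaled differently from CPM and carry every test here, these differences were 2.85 and 2.72. The fit over all 6 libraries, with population and age as terms, gave 2.79 ± 0.25 (SE; 95% interval 2.22 to 3.35; limma, adjusted p = 0.000953). In that comparison 6.02% of the 19561 genes tested were called at an adjusted p below 0.05, 3.76% higher and 2.26% lower. Mef2c was the 1 member of 3 that passed. With limma's trend and robust options turned off it no longer passed (adjusted p = 0.191), a setting in which no gene passed, while 3414 had an unadjusted p below 0.05. Both libraries of an age were sorted from shared tissue, so the p-value of this age difference does not measure the spread between separate tissue samples of 1 age. In bulk libraries, fewer cells of a type and less RNA per cell cannot be told apart.

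**Figure D1:**
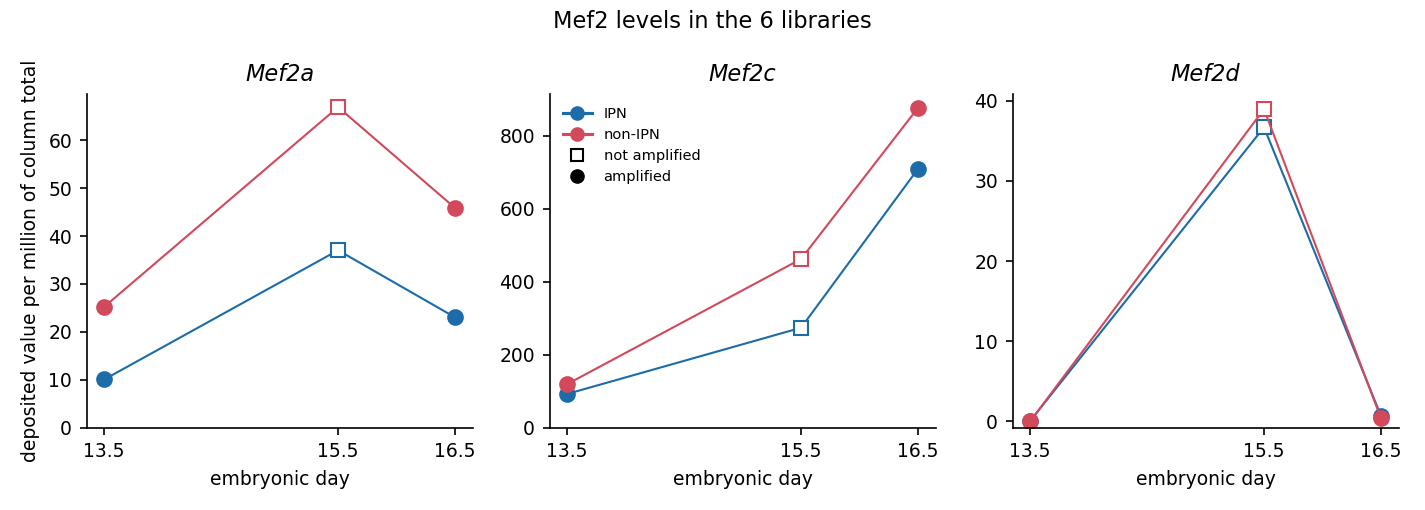
CPM (vertical axes, linear) by embryonic day for Mef2a, Mef2c and Mef2d. Blue marks IPN and red non-IPN, filled circles the amplified libraries and open squares the unamplified E15.5 libraries, 1 library per point. Mef2c climbs to 710 and 877 at E16.5, Mef2a lies higher in non-IPN at every day, and Mef2d is at 36.7 and 39.0 at E15.5 and under 1 elsewhere.

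Markers of cell types that express Mef2c were set beside this rise. Between E13.5 and E16.5 the sum of projection neuron markers went from 3300.89 to 5069.5 CPM in IPN and from 487.48 to 2507.69 CPM in non-IPN, and that of interneuron markers from 21.85 to 53.42 and from 1308.58 to 2838.68 CPM. The 14 microglia markers summed to 5.43, 2.52 and 1.92 CPM in IPN and to 960.24, 1005.13 and 502.79 CPM in non-IPN. All 14 were called lower in IPN, where 2.41% of all genes tested were, with a median log2 difference of -7.63. The microglial receptor gene P2ry12 was at 0.194 to 0.246 CPM in the IPN libraries and at 92.6 to 210 in the non-IPN libraries. In both populations the microglia sum at E16.5 was below that at E13.5. The 9 endothelial markers summed to between 0.52 and 5.32 CPM in all 6 libraries, and Cdh5, the endothelial cadherin, was at 0 in 3 of them. How much of the non-IPN Mef2c level belongs to microglia was not tested. Sums of progenitor and pan-neuronal markers also differed between these ages, though not every listed gene did. From E13.5 to E16.5 the 7 radial glia markers went from a sum of 1176.67 to 533.07 CPM in IPN and from 4146.31 to 1045.72 CPM in non-IPN, and the 4 intermediate progenitor markers from 1596.64 to 826.96 and from 1687.1 to 582.98 CPM. The radial glia list was uneven: Vim, an intermediate filament gene and the 1 member called lower, went from 774 to 149 CPM in IPN, while Nes and Slc1a3 had more CPM in IPN at E16.5 (18.5 and 60.3) than at E13.5 (2.00 and 13.6). Of the intermediate progenitor markers Eomes, Neurog2 and Btg2 were called lower, where 2.26% of all genes tested were, and Insm1 was not (log2 difference 0.14; limma, adjusted p = 0.815). The 6 pan-neuronal markers went from 4117.31 to 7145.35 CPM and from 2044.16 to 7965.16 CPM, a smaller multiple than that of Mef2c in each population. The part of any of these cell classes, microglia and neurons included, in the Mef2c difference between ages was not tested.

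**Figure D2:**
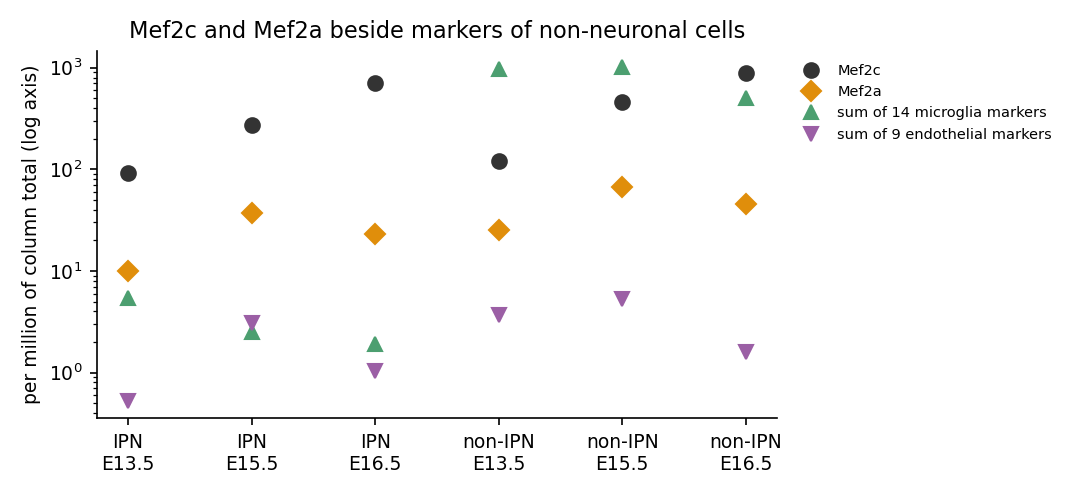
Mef2c (black circles), Mef2a (orange diamonds) and the summed microglia (green triangles) and endothelial (purple triangles) markers in each library, in CPM on a log axis. The microglia sum is 1.92 to 5.43 in the IPN libraries and 502.79 to 1005.13 in the non-IPN libraries, and Mef2c is highest in the E16.5 library of each population.

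Between the populations, no member passed the test, in a comparison in which 3.39% of genes were called, 0.982% higher in IPN and 2.41% lower. Mef2c was higher in non-IPN on every day, by 1.29-fold, 1.69-fold and 1.24-fold, and the IPN minus non-IPN difference was -0.34 ± 0.21 on the log2 scale (95% interval -0.80 to 0.12; limma, adjusted p = 0.554). The interval runs from a clear excess in non-IPN to a slight excess in IPN, so equal levels were not shown. The population difference of Mef2c did not move detectably with day (0.0035 log2 units per day, 95% interval -0.34 to 0.35; limma, adjusted p = 1), a term for which 1.3% of genes were called and no member was.

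Mef2a, the broadly expressed member, was higher in non-IPN at each of the 3 ages, without passing the test. Its levels were 10.1, 37.0 and 23.0 CPM in IPN, and 25.2, 66.9 and 45.9 CPM in non-IPN. The excess in non-IPN was 2.50-fold, 1.81-fold and 1.99-fold, and the ranges of the populations over ages overlapped. The IPN minus non-IPN difference was -0.92 ± 0.29 on the log2 scale (95% interval -1.56 to -0.27). Its unadjusted p was 0.00966 and its adjusted p 0.153 (limma), so it was not called. Over 11 other settings the difference ran from -1.01 to -0.79 and was called in 0. On every day the summed microglia and interneuron markers were higher in non-IPN, and the summed projection neuron markers lower. The part of this cell mixture in the Mef2a difference was not tested. Between E13.5 and E16.5, Mef2a was 2.29-fold higher in IPN and 1.82-fold in non-IPN, a fitted log2 difference of 0.91 ± 0.35 that did not pass (limma, adjusted p = 0.167).

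The Mef2a values carry 1 annotation limit. In GENCODE M21, the whole span of Mef2a, introns included, overlaps that of Lysmd4, a gene of the opposite strand, over 76168 bases. The overlap of their exons was not measured, and whether the counting used strand is not given in the sources used here. In IPN Lysmd4 had 31.9, 69.0 and 25.5 CPM, and its non-IPN levels were 10.7, 59.2 and 39.8 CPM. It was higher in IPN at E13.5 and E15.5, where Mef2a was lower, and lower in IPN at E16.5, as Mef2a was.

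The balance between Mef2c and Mef2a shifted with age. The ratio of Mef2c to Mef2a values within a library was 9.21, 7.41 and 30.8 in IPN and 4.75, 6.92 and 19.1 in non-IPN. The ratio was higher in IPN than in non-IPN in all 3 pairs and higher at E16.5 than at E13.5 in both populations. This ratio was not tested. Per kilobase of the longest coding transcript, the E15.5 levels of IPN and non-IPN were 43.7 and 73.7 CPM for Mef2c, 6.69 and 12.1 for Mef2a, and 6.79 and 7.21 for Mef2d.

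Mef2d, which is co-expressed with other members in many adult neurons, was above 1 CPM at E15.5 and at no other age. On that day its deposited value was 1194 in IPN and 1222 in non-IPN, which is 36.7 and 39.0 CPM. In the amplified libraries the E13.5 values were 1 (IPN) and 0 (non-IPN), and the E16.5 values 10 and 5, all under 1 CPM. At E15.5 the 2 populations differed by -0.03 on the log2 scale. The fitted population difference of 0.61 ± 0.78 (limma, adjusted p = 0.814) rests in part on the near-zero values, with a 95% interval of -1.12 to 2.34. The fitted age difference of 2.52 ± 0.95 (limma, adjusted p = 0.155) depends on the pseudocount, at 0.50 with a pseudocount of 16 and 3.13 with one of 0.5.

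**Figure D3:**
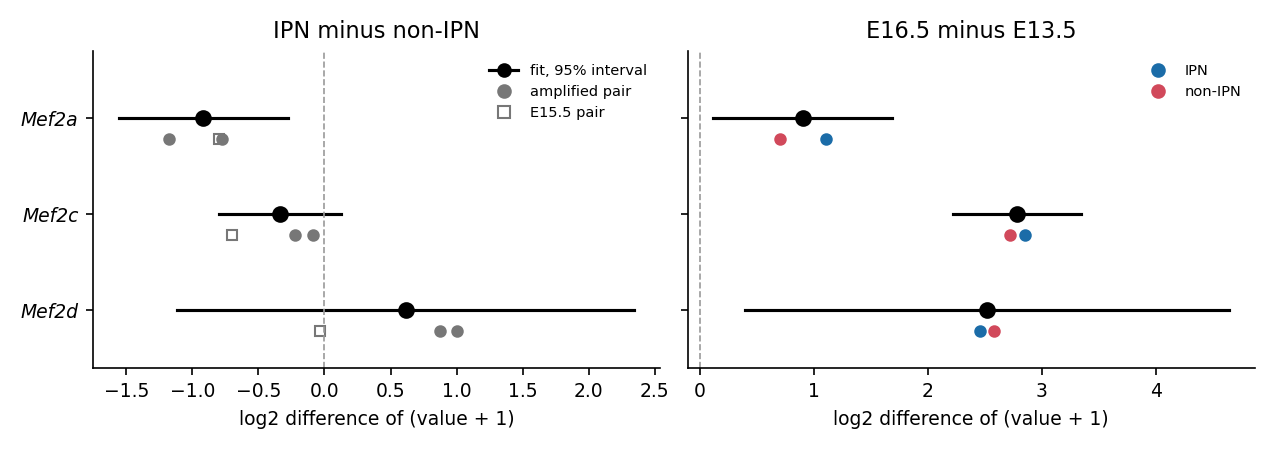
Log2 difference of (value + 1) for each member between populations (left) and between E16.5 and E13.5 (right). Black points and lines are the fit and its 95% interval, and the points beneath are the single pairs (left: gray circles amplified, open squares E15.5) or the single populations (right: blue IPN, red non-IPN). Mef2c lies at 2.79 between ages with its 2 populations at 2.85 and 2.72, and Mef2a lies below 0 in all 3 population pairs.

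The Mef2d pattern was counted over all genes. Of 6168 genes with at least 30 CPM in both E15.5 libraries, 7 (0.1135%) were under 1 CPM in all 4 amplified libraries; these limits were chosen after the Mef2d values were seen. With a lower limit of 10 CPM at E15.5 the count was 38 of 9004 genes. At 30 CPM the others beside Mef2d were 6030419C18Rik, Dapk3, Flywch1, Lrfn1, Spnb4 and Zfp385a. In the opposite direction, 9 genes were under 1 CPM in both E15.5 libraries and at 30 CPM or more in all 4 amplified libraries. In the longest GENCODE M21 coding transcript, GC content was 55.03% for Mef2d, 42.02% for Mef2a and 40.78% for Mef2c. All 7 genes lay in the highest of 4 equal GC bins of the 6111 genes with a transcript, at 55.03% to 63.72%, and Mef2d had the lowest GC of them. The median log2 ratio of E15.5 to amplified libraries, on mean CPM plus 1, was -0.402 in the lowest GC bin, 0.15 and 1.059 in the middle bins and 2.131 in the highest. Mef2d ranked 61 of the 6168 by this ratio. The part of GC content in the Mef2d values was not tested.

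**Figure D4:**
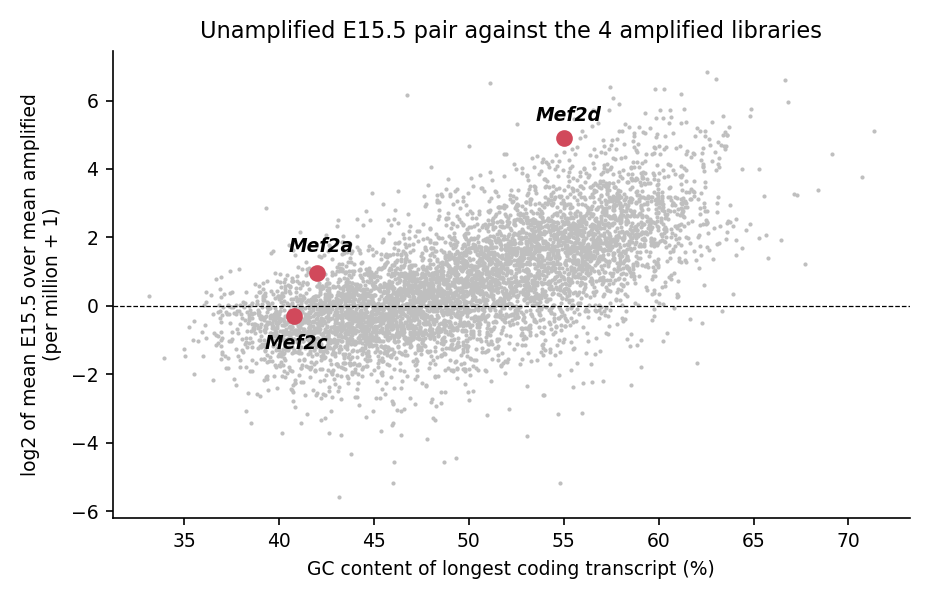
GC content of the longest coding transcript against the log2 ratio of the mean E15.5 level to the mean amplified level (CPM plus 1), for 6111 genes at 30 CPM or more in both E15.5 libraries (gray). The 3 Mef2 genes are in red; Mef2d, at 55.03% GC, has a log2 ratio of 4.92, against 0.97 for Mef2a at 42.02% and -0.29 for Mef2c at 40.78%.

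Mef2b, the remaining family gene, was listed at 0 in 5 libraries and at a deposited value of 4 in non-IPN at E15.5.

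The genes of proteins that hold MEF2 inactive were followed next, since the balance of these proteins with its activators sets MEF2 activity. Only RNA was measured, so these levels are not a measure of that activity. Of 9 class IIa histone deacetylases and corepressors followed, 0 were called between the populations, against 3.39% of all genes tested, and 1 was called higher and 0 lower at E16.5 than at E13.5, against 3.76% and 2.26% of all genes. With so few genes this count is not read as apart from those shares. The list's median age difference was 0.68 on the log2 scale, against 0 over all genes tested. Nrip1, a corepressor first known from nuclear receptors, was at 0.776 and 0.286 CPM at E13.5 in IPN and non-IPN and at 33.8 and 17.7 at E16.5 (log2 difference 5.37 ± 0.61; limma, adjusted p = 0.00171). The class IIa enzyme gene Hdac5 had a difference of 1.66 ± 0.44 and Hdac4 one of 2.97 ± 0.91, and neither passed (limma, adjusted p = 0.0549 and 0.0872).

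Of 18 coactivators and partner factors, 1 was called higher and 1 lower with age, where 3.76% and 2.26% of all genes were, and the median was 0.19. Crebbp, a histone acetyltransferase that MEF2 recruits, was at 17.1 and 26.5 CPM at E13.5 in IPN and non-IPN and at 84.7 and 129 at E16.5 (2.18 ± 0.29; limma, adjusted p = 0.00364). Nfatc4, a calcineurin-regulated factor, was at 7.63 and 3.43 and then at 0.410 and 0.477 (-3.45 ± 0.84; limma, adjusted p = 0.0393). Nfatc1, a related factor, was the 1 gene of the regulator and target lists (9, 18, 31 and 16 genes tested) called between the populations. Of all genes tested, 3.39% were called and 2.41% were called lower in IPN, so this count is not read as above those shares. Nfatc1 was at 0.0646 to 0.154 CPM in IPN and at 3.18 to 9.08 in non-IPN (-4.82 ± 0.85; limma, adjusted p = 0.0109). The 14 microglia markers moved in the same direction, and their part in the Nfatc1 difference was not tested. Nfatc1 no longer passed without the E13.5 pair or without the E15.5 pair (adjusted p = 0.0572 and 0.214), with a pseudocount of 16 (0.0698), on the CPM scale (0.0771), without the trend and robust options (0.144) or without the age term (0.449).

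Of 31 kinases and phosphatases that act on MEF2, 5 were called higher with age and 0 lower, where 3.76% and 2.26% of all genes were, and the median was 0.54. The phosphatase genes of this list all encode subunits of calcineurin. The catalytic subunit gene Ppp3ca went from 6.14 and 11.8 CPM in IPN and non-IPN to 75.1 and 82.4 (3.08 ± 0.35; limma, adjusted p = 0.00171), and the regulatory subunit gene Ppp3r1 from 40.1 and 25.0 to 122 and 165 (2.04 ± 0.32; adjusted p = 0.00703). The calcium/calmodulin-dependent kinase genes Camk2b and Camk4 differed by 2.68 ± 0.43 and 2.54 ± 0.45 (limma, adjusted p = 0.00796 and 0.0119). Gsk3b, a kinase of many substrates, differed by 1.11 ± 0.26 (adjusted p = 0.0346). The other calcineurin catalytic genes Ppp3cb and Ppp3cc did not pass, at 0.54 ± 0.31 and 0.16 ± 0.66, and neither did Camk2a at -1.92 ± 0.95.

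**Figure D5:**
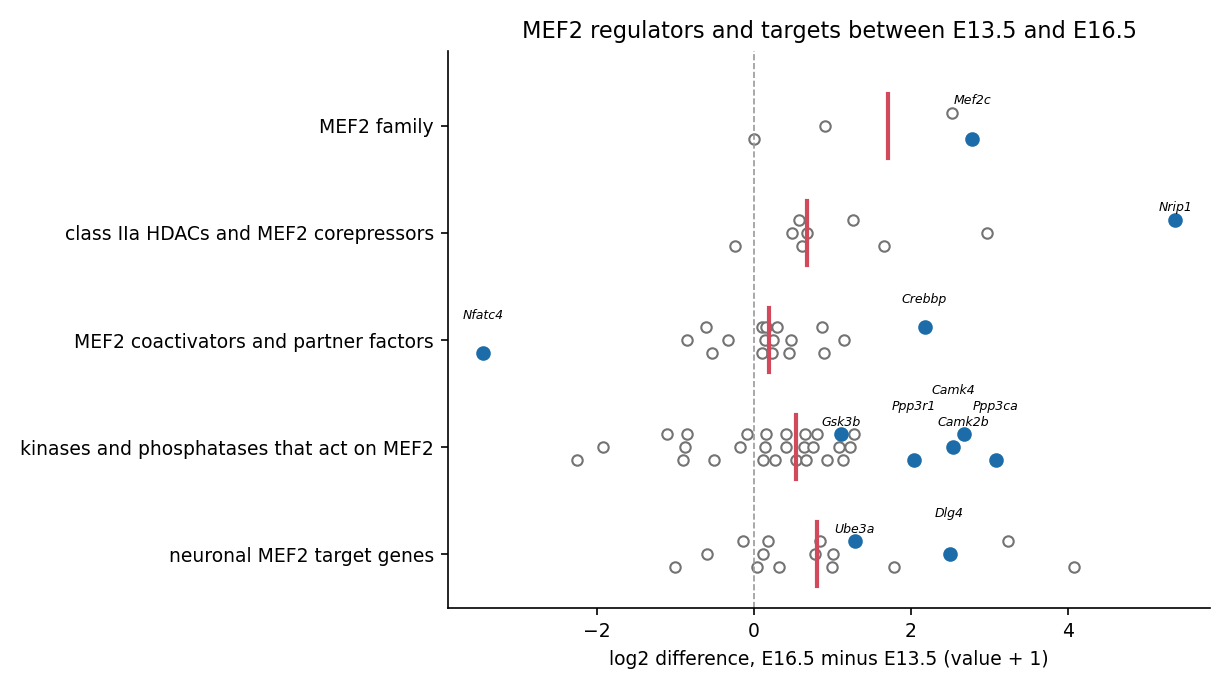
Log2 difference from E13.5 to E16.5 of (value + 1) for each gene of 5 lists, 1 circle per gene; filled blue circles passed limma's adjusted p of 0.05 and are named, open circles did not, and red bars are list medians. Mef2c at 2.79 lies near Ppp3ca, Camk2b and Camk4 on this axis, and Nfatc4 is the called gene below 0.

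Of 17 neuronal genes known as MEF2 targets, 16 were found, and 2 were called higher and 0 lower with age, where 3.76% and 2.26% of all genes were, and the median was 0.81. Ube3a, a ubiquitin ligase, went from 50.4 and 70.2 CPM in IPN and non-IPN to 177 and 140 (1.28 ± 0.30; limma, adjusted p = 0.0322). Dlg4, which encodes the postsynaptic scaffold PSD-95, went from 0.905 and 0.5005 to 3.56 and 5.64 (2.50 ± 0.58; limma, adjusted p = 0.0337). The activity-dependent genes Arc, Fos and Nr4a1 were under 10 CPM in every library and did not pass. Of 12 muscle and vascular targets 0 were called in either comparison, near the 3.39% (population) and 6.02% (age) of all genes, and their sum was at most 20.73 CPM in any library. Of 5 genes for the related MADS-box factor Srf and its partners 0 were called in either comparison, which is likewise near those shares.

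The calls of regulators and targets with age were less stable than that of Mef2c. Of the 10 called, 2 (Nrip1 and Ppp3ca) passed with the 4 amplified libraries alone, 3 with a pseudocount of 16, 4 on the CPM scale and 0 without limma's trend and robust options. Without the IPN library of E15.5, 1 passed, and without the non-IPN library of E15.5 or of E16.5, 3 and 2 passed. Without the IPN library of E16.5 or of E13.5, 5 and 8 passed, and without the non-IPN library of E13.5, 8. Mef2c passed in each of these fits except the one without trend and robust options, and its difference ran from 2.60 to 2.97 over 14 other settings.

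Genes with profiles most like each member were named by the smallest root mean square difference of mean-centered log2(CPM + 1) over the 6 libraries, among 9348 other genes with a mean of at least 10 CPM. For Mef2c these were Pcdhb18 (0.224), Runx1t1 (0.231), Slc7a14 (0.343), Zfp759 (0.374) and Chl1 (0.403), where the median gene was at 1.37. Runx1t1, a transcriptional corepressor gene, reached 65.8, 189 and 421 CPM in IPN, with 85.8, 212 and 493 CPM in the non-IPN libraries. Chl1, a cell adhesion gene, was at 166, 730 and 901 and at 307, 1075 and 1294. For Mef2a the nearest were Lamp1 (0.135), Phyhd1 (0.147), 4933432B09Rik (0.176), Ptprj (0.188) and Necap2 (0.198), and Lamp1, a lysosomal membrane protein gene, was higher in non-IPN in each pair, as Mef2a was. For Mef2d they were Dtx3 (0.0816), Bai1 (0.118), Dapk3 (0.130), Med25 (0.199) and Arhgap33 (0.199), all far higher at E15.5 than in the amplified libraries. Between the members themselves the differences were 0.921 for Mef2a and Mef2c, 1.91 for Mef2a and Mef2d and 2.40 for Mef2c and Mef2d.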

How the data were processed

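Each deposited file holds gene symbols and whole numbers. The authors' values were treated as a signal already scaled by the authors, not as raw counts, because the upper quartile matched within the E15.5 pair and within the amplified libraries although totals differed. True depth is therefore unknown and no counting interval was computed. The submitters' processing notes name the build mm9, edgeR, SAMtools 0.1.18, TopHat 1.2.0 and CASAVA 1.9; the read counter is not given in the sources used here. RNA was extracted with TRIzol, per the labels' protocols. Symbols were joined, and 6 rows of 3 repeated symbols dropped. CPM levels are deposited values per 1000000 of the column total.

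Log2(value + 1) was fitted with limma 3.58.1 (R 4.3.3; trend, robust; tested on simulated data) over 19561 genes above 0 in at least 1 library, with Benjamini-Hochberg adjustment at 0.05. Population and age were terms (2 residual degrees of freedom). For the population difference, the 3 age pairs, each sorted from shared tissue per the labels' protocols, were the only replication. For the age difference, the 2 populations of an age stood as its replicates. Its p-values therefore do not measure the spread between separate tissue samples of 1 age. A second model added population by day. The labels name no separate animals, and p-values measure only the spread between these libraries. Limma draws each gene's error in part from the spread of the other genes. The weight of that part, the median prior degrees of freedom, was 8.256 against 2 residual ones. For population by day it was 14.55 against 1. Log2 differences of low genes are understated. Named genes were the family, the called genes of each list (up to 5 per direction) and the 5 nearest profiles of each member. A listed gene is not reported here and was left out of the list counts. The members and lists were chosen with earlier results of these data known. Motif searches used RefSeq windows of GRCm38.p6, and transcript length and GC content GENCODE M21.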

Additional observations from a re-analysis of the deposited data

How the results depend on the processing

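The Mef2c rise with age passed in 13 of 14 other settings, and the population differences of Mef2a, Mef2c and Mef2d kept their sign in all 11 and passed in 0. The population by day term, which passed for no member, changed sign for Mef2d with a pseudocount of 16 (0.054) and on the CPM scale (0.039), and for Mef2c on the CPM scale (-0.011). Counts of called genes over the whole table moved more. Between populations, 664 genes became 220 with a pseudocount of 16, 196 on the CPM scale (13 higher and 183 lower, against 192 and 472), 358 with a mean of at least 10 CPM, and 54 to 595 without 1 age pair, lowest without the E15.5 pair. Without the age term (no replicate block) 0 passed in limma, with 676 at an unadjusted p below 0.05. Between ages, 1178 became 200 with a pseudocount of 16, 244 on the CPM scale, 97 with the 4 amplified libraries, and 65 (without IPN at E15.5) to 2085 (without IPN at E13.5) without 1 library. For population by day, 255 became 530 and 3 with pseudocounts of 0.5 and 16, 906 on the CPM scale, 1559 with median-of-ratios size factors, 1456 with the upper quartile and 135 with the mean filter. Without trend and robust options limma called 0 in the 3 comparisons, with 1946, 3414 and 2321 at an unadjusted p below 0.05. The cause of these shifts was not tested. Leaving out 1 library left no residual degrees of freedom for population by day, so no fit was made. For the population difference, leaving out 1 library leaves its partner without weight and equals leaving out the pair. The median population difference over genes with a mean of at least 10 CPM was 0.091 as deposited and -0.046 on the CPM scale, and the age median 0.047 and 0.158. Member levels moved by less than 1.5 times under median-of-ratios scaling or without hemoglobin genes. Depth is unknown, and Mef2d in the amplified libraries rests on deposited values of 0 to 10.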

Other observations

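The MEF2 regulators and targets Dlg4, Hdac5 and Cdk5r2, picked after their values were seen, were higher at E15.5 than in any amplified library. This was not particular to them: Gsk3a, Carm1, Cabin1 and Prkaca of the same lists were too, while Tcf4 and Mapk14 were not. Over the 6168 genes with at least 30 CPM in both E15.5 libraries, the median log2 ratio of E15.5 to amplified libraries was 0.563. Dlg4 was at 314 and 212 CPM at E15.5 in IPN and non-IPN and at 0.5005 to 5.64 in the amplified libraries. Hdac5 was at 216 and 218 at E15.5 and at 5.58 to 37.9 in the amplified libraries. Cdk5r2, an activator of the kinase Cdk5, was at 16.5 and 41.7 at E15.5 and below 1 in the other 4 libraries. Age, cell number and amplification cannot be told apart for these values.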
